A study of Mus musculus with 8 samples.

Results

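The SR splicing factor family of mouse lung endothelium is described here by 10 genes, Srsf1, Srsf2, Srsf3, Srsf4, Srsf5, Srsf6, Srsf7, Srsf9, Srsf10 and Srsf11, out of 31610 genes in the count table. They were picked by gene symbol, and each of the 10 symbols matched an Ensembl identifier in the table and passed the filter on low counts that left 18874 genes. The family was centred on Srsf10 because its lower level in this same comparison was already known, so the fold changes and adjusted p-values of the members describe the table and test nothing about the choice. The RNA came from lung endothelial cells of C57BL/6J mice, isolated by fluorescence-activated sorting, and was read as total RNA after low-input amplification. Both groups were given an adeno-associated virus (AAV), which is used to deliver a gene: 4 libraries came from mice given Control AAV and 4 from mice given nANGPTL4 AAV. The second group is titled NT Treated, which the labels do not explain. ANGPTL4 is a circulating protein that blocks lipoprotein lipase, and the labels do not say how the nANGPTL4 form differs from it. The sources used here give neither age and sex nor the dose, promoter and timing of the virus. The 4 libraries of a group were stated to be independent biological replicates.

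SR proteins bind pre-mRNA through RNA recognition motifs and recruit the splicing machinery through a tail rich in alternating arginine and serine, the RS domain. Kinases of the SRPK and CLK families phosphorylate that tail, and the importin Tnpo3 carries the phosphorylated proteins into the nucleus. Many SR genes limit their own output by splicing in exons or keeping introns that send the transcript to nonsense-mediated decay. Srsf10 is an unusual member that represses splicing when it is dephosphorylated, as happens in heat shock and mitosis. In endothelium, SR proteins are known to take part in the choice of endoglin isoforms.

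The arginine and serine codons behind the RS domain are the feature for which these genes are named, so their presence is a description of the members and no independent finding. For each gene a single complete coding sequence of GENCODE M21 (build mm10) was used, the longest with a consensus coding (CCDS) tag or else the longest. It was searched for neighbouring codons that read arginine then serine or serine then arginine, and the densest 30-codon stretch of 90 bases was kept. Arginine codons are CGN, AGA and AGG, and serine codons are TCN, AGT and AGC. Such a stretch held at least 10 pairs in 9 of the 10 members and in 81 of 21563 mouse coding genes, or 0.376%. The median gene held 1 pair. The stretches of Srsf10, of the members with the next largest differences between groups (Srsf7, Srsf6 and Srsf5) and of the member with the fewest pairs (Srsf9) are shown 5′ to 3′, with the paired codons in capitals.
Srsf10: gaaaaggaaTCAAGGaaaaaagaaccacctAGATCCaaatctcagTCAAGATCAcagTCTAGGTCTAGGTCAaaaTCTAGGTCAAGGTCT
Srsf7: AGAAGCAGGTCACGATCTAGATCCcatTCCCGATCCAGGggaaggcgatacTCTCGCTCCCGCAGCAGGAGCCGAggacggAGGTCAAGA
Srsf6: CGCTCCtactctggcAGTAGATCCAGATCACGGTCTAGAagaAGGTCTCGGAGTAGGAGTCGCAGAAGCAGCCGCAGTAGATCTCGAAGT
Srsf5: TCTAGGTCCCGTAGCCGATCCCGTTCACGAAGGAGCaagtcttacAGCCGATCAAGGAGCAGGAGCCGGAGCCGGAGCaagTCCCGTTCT
Srsf9: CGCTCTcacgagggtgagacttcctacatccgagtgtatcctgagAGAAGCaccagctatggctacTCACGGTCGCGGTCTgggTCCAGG

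These stretches lie in coding exons. That of Srsf10 spans chr4:135863907-135863996 on the plus strand within 1 exon and holds 12 pairs. That of Srsf7 spans chr17:80204226-80205269 on the minus strand across 3 exons with 19 pairs, and that of Srsf6 spans chr2:162933837-162934291 on the plus strand across 2 exons with 21. The stretch of Srsf5, chr12:80949757-80949846 on the plus strand, lies in 1 exon and holds 22 pairs. That of Srsf9, chr5:115332278-115332653 on the plus strand, crosses 2 exons and holds 7. Over the whole coding sequence the pairs numbered 42 in the 262 codons of Srsf10, 74 in 339 of Srsf6 and 106 in 491 of Srsf4, the most in the family, against 9 in 222 codons of Srsf9. The capitals are lined up almost without a break in Srsf5, whereas those of Srsf10 come in shorter runs.

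The counts are totals per gene, so protein-coding transcripts and those marked for decay are summed. GENCODE M21 lists transcripts of the nonsense-mediated decay type for 9 of the 10 members, between 1 and 3 each, and 0 for Srsf10. It lists retained-intron transcripts for 8 members, up to 11 in Srsf11, and 0 for Srsf9 and Srsf10. Of the 10 transcripts of Srsf10, 4 were protein coding and 6 of other types. The Srsf10 gene lies at chr4:135855747-135869908 on the plus strand.

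Some counts are less certain because sequence is shared. An antisense transcript, Gm12992, overlaps 43.0% of the exonic bases of Srsf4. Gm12992 had 1428 counts over all 8 libraries, which does not show how reads in the overlap were assigned. Mettl23 and Mfsd11, on the other strand, overlap 15.6% and 9.74% of those of Srsf2, and no source used here gives the strand setting of the counting. Of the 31-base stretches of Srsf10, 12.0% recur in other annotated transcripts, mainly in the processed pseudogenes Gm5446 and Gm9134. Those pseudogenes had only 183 and 134 counts over all 8 libraries. Recurrence was 41.0% for Srsf4 and 23.1% for Srsf2, mostly in the overlapping genes named above, 14.2% for Srsf5, with a pseudogene, Gm12966, that had 1230 counts in all, and 13.9% for Srsf3, while Srsf6 and Srsf9 shared none.

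Levels between genes were compared per kilobase of exon, as RPKM (reads per kilobase of exon, scaled to library size), with the union of all annotated exons as the length. Srsf5 was the most abundant member, at 129 ± 6.46 RPKM in control AAV (SD, n = 4) and 144 ± 7.70 RPKM in nANGPTL4 AAV (SD, n = 4). Srsf2 followed at 90.8 ± 5.03 and 87.3 ± 7.55 RPKM, and Srsf10 stood last at 8.97 ± 0.380 and 7.39 ± 0.210 RPKM. The order from high to low was Srsf5, Srsf2, Srsf9, Srsf7, Srsf6, Srsf3, Srsf1, Srsf11, Srsf4 and Srsf10 in both groups. Over all 8 libraries the ranges of neighbours in that order overlapped only for Srsf6 and Srsf3. Even the lowest member was above 72.6% of tested genes by mean RPKM, and Srsf5 was above 98.6%.

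The order depended on the length used. With the length of the single transcript whose coding sequence was searched, a setting added after the data were seen, Srsf3 moved from 26.1 to 78.7 RPKM in control AAV, the third place in that group. Its exon union of 7899 bases is longer than the 2618 bases of that transcript. In control AAV Srsf10 then stood at 20.6 RPKM, above Srsf4 at 19.2 RPKM, but in nANGPTL4 AAV it stood at 16.9 RPKM, below Srsf4 at 19.1 RPKM. Srsf3 was likewise above Srsf9 in control AAV (78.7 and 77.4 RPKM) and below it in nANGPTL4 AAV (74.0 and 77.7 RPKM). Srsf5 and Srsf2 kept the first and the second place in both groups.

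**Figure D1:**
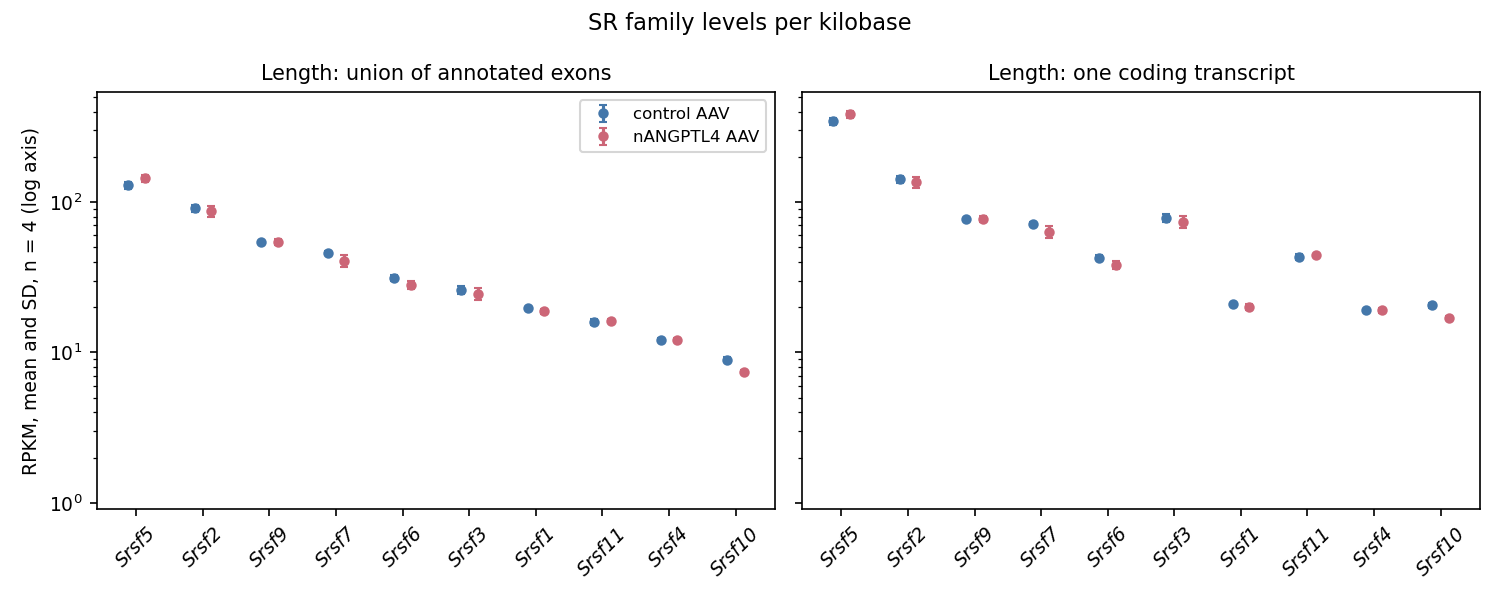
RPKM of each SR gene (mean and SD of 4 libraries per group, log axis) with the union of annotated exons as length on the left and the length of a single coding transcript on the right, genes in the order of the left panel. Srsf5 and Srsf2 lead in both panels, while Srsf3 rises from 26.1 to 78.7 RPKM in control AAV when the shorter length is used.

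Srsf10 was the member that differed most between the groups. It had 60.4, 64.7, 65.6 and 60.7 CPM (counts scaled to library size, with TMM factors) in control AAV libraries 1 to 4, and 52.7, 49.6, 52.1 and 52.7 CPM in nANGPTL4 AAV libraries 1 to 4. All 4 nANGPTL4 AAV libraries lay below all 4 control AAV libraries, with a clear gap between 52.7 and 60.4 CPM. The group means were 62.8 ± 2.66 and 51.8 ± 1.47 CPM (SD over 4 libraries). On the log2 scale the change was -0.28 (SE 0.04, 95% interval -0.38 to -0.18), and the percent change was -17.6%. The adjusted p was 0.0453 in edgeR's quasi-likelihood test with Benjamini-Hochberg adjustment over 18874 genes, the 24th smallest p of the table. In bulk RNA of sorted cells, less RNA per cell and fewer cells with high Srsf10 cannot be told apart.

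The call for Srsf10 rests close to the threshold, but its size does not. Over 17 other fits the log2 fold change stayed between -0.30 and -0.24, negative in each, while the adjusted p passed only in DESeq2 (6.48e-05) and ranged up to 0.249. Leaving out any 1 of the 8 libraries ended the call, with adjusted p between 0.0766 and 0.203.

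**Figure D2:**
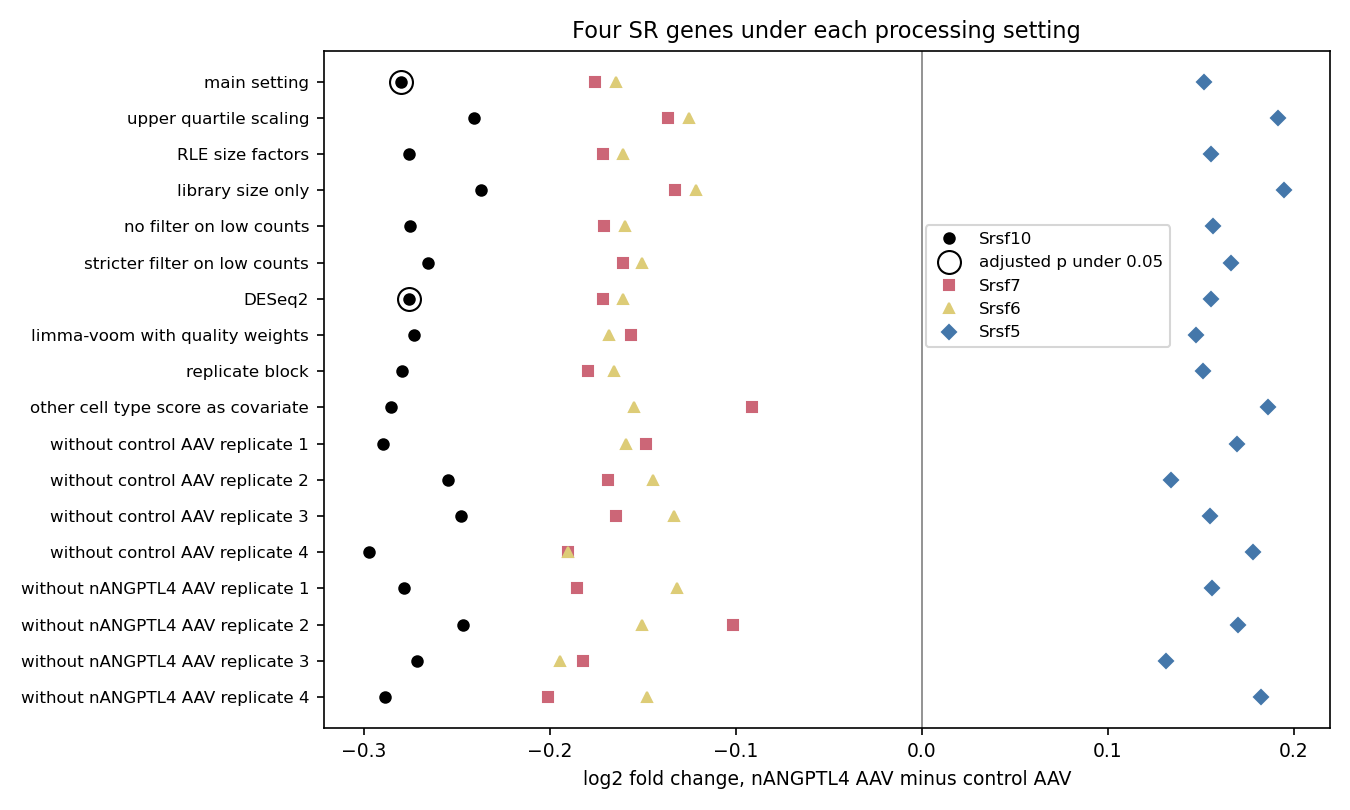
Log2 fold changes (nANGPTL4 AAV minus control AAV) of Srsf10, Srsf7, Srsf6 and Srsf5 under the main setting and 17 other fits, with a ring where the adjusted p is under 0.05. Srsf10 stays between -0.30 and -0.24 and carries a ring in the main setting and in DESeq2, and Srsf5 stays on the positive side throughout.

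Of the 10 members, 1 was called lower and 0 higher, where 0.0901% and 0.0477% of all tested genes were called lower and higher (0.138% in all). The single call is the gene that the family was built around, so nothing is read from that count. At an unadjusted p under 0.05 there were 4 members, 3 lower (Srsf10, Srsf6 and Srsf7) and 1 higher (Srsf5), beside 10.3% of all tested genes lower and 7.35% higher. Among the 9256 genes with a mean log2 CPM over 3, a range that holds all 10 members, 18.2% were lower at that p. DESeq2 called Srsf10 alone among the members, as lower, where it called 5.07% of all tested genes, 3.43% as lower. Limma-voom called 0 members and 0.111% of all tested genes. At an edgeR adjusted p under 0.1 Srsf10 was again the only member, beside 2.50% of all tested genes (1.89% lower).

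Srsf7, an SR protein with a zinc knuckle beside its RNA recognition motif, had 170, 162, 163 and 159 CPM in control AAV libraries 1 to 4 and 151, 126, 150 and 152 CPM in nANGPTL4 AAV libraries 1 to 4. The groups did not overlap, and nANGPTL4 AAV library 2 was far below the rest. A separation in the lower direction was found for 2 members, Srsf10 and Srsf7, and for 6.99% of all tested genes (12.6% of those with a mean log2 CPM over 3), and in the higher direction for 0 members and 3.89% of all tested genes. The log2 fold change of Srsf7 was -0.18 (SE 0.06, 95% interval -0.31 to -0.04, edgeR adjusted p = 0.177) and -0.10 without nANGPTL4 AAV library 2. It was -0.09 with a score of other cell types in the fit.

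Srsf6, which has a second RNA recognition motif, had 150, 153, 157 and 143 CPM in control AAV libraries 1 to 4 and 128, 134, 146 and 130 CPM in nANGPTL4 AAV libraries 1 to 4. The groups overlapped only through nANGPTL4 AAV library 3, which lay above control AAV library 4. Its log2 fold change was -0.16 (SE 0.05, 95% interval -0.28 to -0.05, edgeR adjusted p = 0.144).

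Srsf5, the most abundant member, leaned the other way. It had 527, 485, 508 and 546 CPM in control AAV libraries 1 to 4 and 580, 567, 611 and 536 CPM in nANGPTL4 AAV libraries 1 to 4. The nANGPTL4 AAV values were mostly higher, but library 4 of that group fell below control AAV library 4. The log2 fold change was 0.15 (SE 0.05, 95% interval 0.03 to 0.27, edgeR adjusted p = 0.183) and stayed positive in the 17 other fits, between 0.13 and 0.19.

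The other 6 members had 95% intervals that included 0. Srsf1, the founding member of the family, averaged 113 ± 1.64 and 107 ± 4.49 CPM (SD over 4 libraries). Its log2 fold change of -0.08 had an interval from -0.17 to 0.02. Srsf3, the smallest member by coding length, was at 206 ± 12.7 and 194 ± 17.6 CPM (log2 fold change -0.09, interval -0.24 to 0.06). Srsf2 was at 268 ± 14.9 and 258 ± 22.3 CPM (log2 fold change -0.06, interval -0.20 to 0.09). For both, the value went to 0.03 and 0.06 when a score of other cell types was added to the fit, and nearly to 0 without nANGPTL4 AAV library 2 (-0.01 for Srsf3 and -0.0027 for Srsf2). Without control AAV library 1 they were -0.03 for Srsf3 and -0.01 for Srsf2.

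The fold changes of Srsf4, Srsf9 and Srsf11 were the nearest to 0. Srsf4, the longest RS domain carrier by pair count, was at 43.4 ± 0.819 and 43.2 ± 1.63 CPM, with an interval from -0.10 to 0.08 on the log2 scale. Srsf9, with its short RS tail, was at 89.9 ± 1.31 and 90.3 ± 4.09 CPM (interval -0.09 to 0.10). Srsf11, an SR-related factor of the family, was at 134 ± 6.08 and 138 ± 3.09 CPM (interval -0.06 to 0.13). Each of these intervals excludes a log2 fold change as large as the -0.28 of Srsf10. That is no test of the difference between genes.

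**Figure D3:**
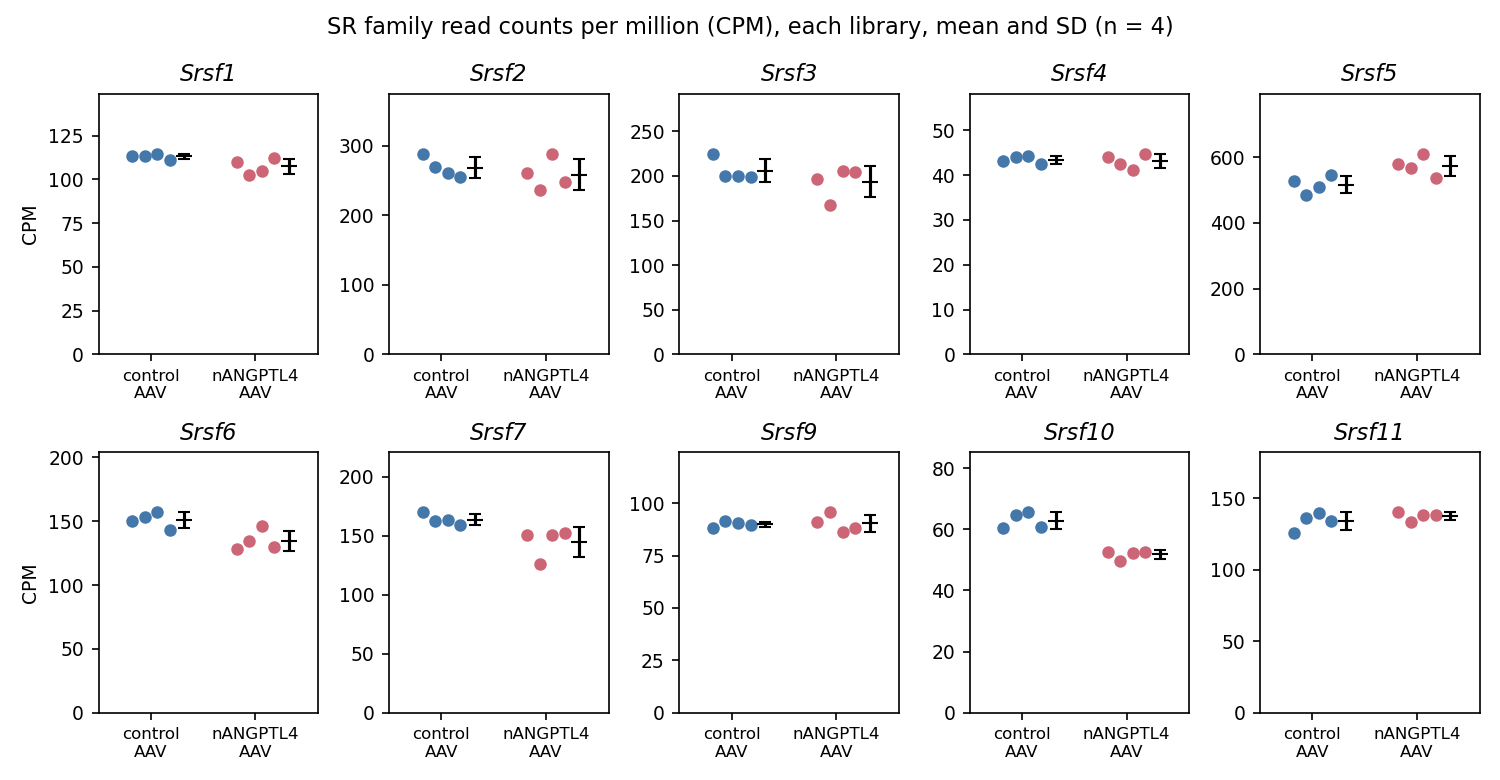
CPM of each SR gene in every library (points, libraries 1 to 4 from left to right in each group) with the mean and SD of 4 libraries beside them, axes starting at 0. Only Srsf10 and Srsf7 show groups that do not overlap, and the lone low point of Srsf7 is nANGPTL4 AAV library 2.

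**Figure D4:**
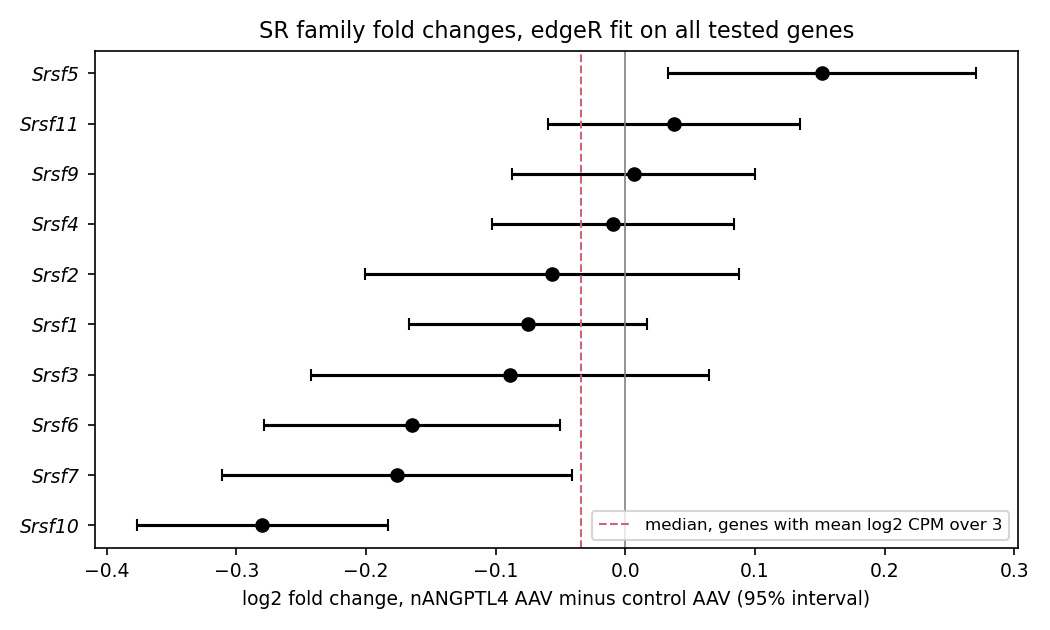
Log2 fold change (nANGPTL4 AAV minus control AAV) of each SR gene with its 95% interval from the edgeR fit, and the median of genes with a mean log2 CPM over 3 as a dashed line at -0.03. The interval of Srsf10 (-0.38 to -0.18) lies farthest from 0 and that of Srsf5 (0.03 to 0.27) lies on the other side.

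As a family the members did not shift as a block. Their log2 fold changes ran from -0.28 to 0.15 with a median of -0.07, and 7 of 10 were negative, beside a median of 0.0089 over all tested genes and of -0.03 over genes with a mean log2 CPM over 3, of which 62.5% were negative. The family sum averaged 1749 ± 30.2 CPM in the control libraries and 1735 ± 71.6 CPM in the nANGPTL4 libraries (SD over 4 each), a difference smaller than either SD. Its makeup differed more. Srsf5 made up 29.5 ± 1.34% of the family CPM in control AAV and 33.1 ± 1.203% in nANGPTL4 AAV, and its share was higher in all 4 nANGPTL4 AAV libraries (31.42% to 34.3%) than in any control AAV library (28.2% to 31.38%), though the closest pair nearly met. Srsf10 made up 3.60 ± 0.194% and 2.98 ± 0.0956%. These shares come from the same contrast and are given as a description.

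Within groups the members varied by small amounts. The coefficient of variation of CPM among control AAV libraries was 1.45% for Srsf1, 1.46% for Srsf9 and at most 6.17%, for Srsf3. Among nANGPTL4 AAV libraries it was 9.11% for Srsf3, 8.67% for Srsf7 and 8.65% for Srsf2, and 2.84% for Srsf10. In nANGPTL4 AAV library 2, 9 of the 10 members were below their group mean, with a median deviation of -0.05 in log2 CPM, where 50.1% of genes with a mean log2 CPM over 3 were below theirs. Srsf3 deviated there by -0.20, Srsf7 by -0.20 and Srsf2 by -0.13, while Srsf9 deviated by 0.08. In control AAV library 4, 8 of the 10 members were below their group mean, with a median deviation of -0.04, where 51.9% of those genes were below theirs. The family median log2 fold change was -0.07 with all libraries, -0.01 without nANGPTL4 AAV library 2 and -0.02 without control AAV library 1. Without control AAV library 4 it was -0.08. The family median was also nearer to 0 with upper quartile factors (-0.03), with unscaled library sizes (-0.02) and with the other cell type score (-0.03). Upper quartile factors and unscaled library sizes also moved the median of genes with a mean log2 CPM over 3, from -0.0341 to 0.0058 and 0.0094.

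Other gene groups moved in nANGPTL4 AAV library 2 too. Immediate early and dissociation genes, such as Fos and Junb, which switch on within minutes of handling, deviated from their group mean by -0.43 in log2 CPM on average over 18 genes. They also deviated by 0.44 in control AAV library 1, -0.40 in control AAV library 2 and 0.34 in nANGPTL4 AAV library 1. There the SR members deviated by 0.0134, 7e-04 and 0.0194 on average, each a mean over members on both sides. In control AAV library 1, Srsf3 deviated by 0.13 and Srsf2 by 0.11, while 5 members lay below their group mean. The lowest there were Srsf11 at -0.09 and Srsf10 at -0.06. Srsf3 and Srsf2 deviated by -0.04 and 0.0084 in control AAV library 2 and by 0.02 and 0.02 in nANGPTL4 AAV library 1. In nANGPTL4 AAV library 2 the 13 genes for SR kinases, a phosphatase complex and the importin deviated by -0.14. The 5 temperature-responsive genes deviated there by -0.22 on average, with members on both sides. Among these, the heat shock gene Hsph1 was at 17.4 CPM, the lowest of the 8 libraries, and Cirbp, a cold-induced RNA-binding protein, at 98.1 CPM, the highest. Markers of other cells were also above their group mean in nANGPTL4 AAV library 2, by 0.54 for lymphocytes, 0.46 for fibroblasts and mural cells, 0.42 for myeloid cells, 0.40 for erythroid cells and platelets and 0.03 for epithelial cells, and the other cell type score there was the highest of the 8 libraries, 1.997 against 0.913 to 1.72. The part of these groups in the SR values was not tested beyond the fit with that score.

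**Figure D5:**
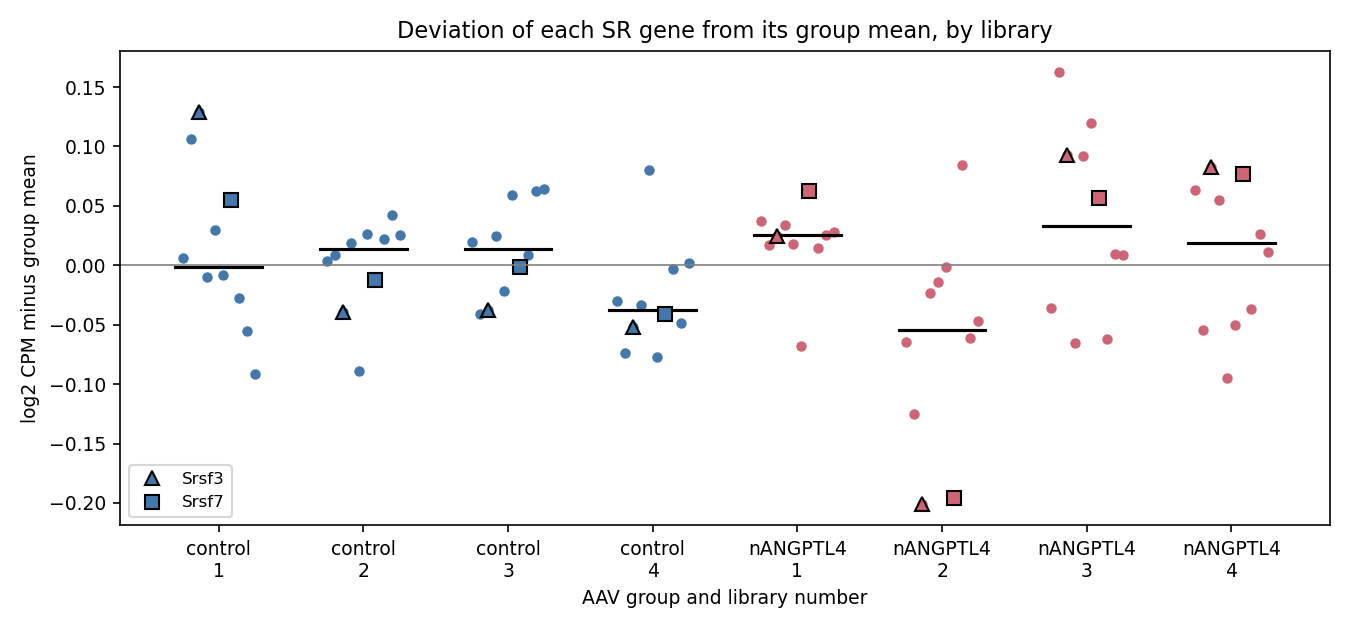
Deviation of each SR gene's log2 CPM from its group mean, by library, with the median of the 10 genes as a line and Srsf3 (triangle) and Srsf7 (square) marked. In nANGPTL4 AAV library 2 the median is -0.05, and Srsf3 and Srsf7 both lie at -0.20.

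The genes that handle SR proteins were read from lists drawn up by function. Of 13 genes for SR kinases, phosphatase subunits and the importin, 0 were called in edgeR, DESeq2 or limma-voom. At an unadjusted p under 0.05, 1 was higher and 1 lower, beside 22.5% in either direction of genes with a mean log2 CPM over 3. Srpk1, the cytoplasmic SR kinase, was lower in all 4 nANGPTL4 AAV libraries, from 34.5 to 38.70 CPM against 38.77 to 43.6 CPM, though the nearest values were almost tied. A separation in the lower direction was found for 12.6% of genes with a mean log2 CPM over 3. The log2 fold change of Srpk1 was -0.16 (SE 0.06, edgeR adjusted p = 0.187). Its relative Srpk2 had a log2 fold change of 0.11 (edgeR adjusted p = 0.282), and Ppp1r10, a nuclear targeting subunit of protein phosphatase, one of 0.28 (SE 0.16, edgeR adjusted p = 0.374). The median of the list was 0.02.

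Of 25 SR-related proteins and partners, 0 were called in edgeR, and 3 were higher and 1 lower at an unadjusted p under 0.05. That p was reached in either direction by 22.5% of genes with a mean log2 CPM over 3. Luc7l3, an RS-domain partner of the U1 particle, had 31.7 to 34.5 CPM in the control libraries and 35.0 to 42.1 CPM in the nANGPTL4 libraries, without overlap. Its log2 fold change was 0.23 (SE 0.07, edgeR adjusted p = 0.115). DESeq2 called Luc7l3 alone in this list, as higher, beside 1.63% of all tested genes called higher. In the list, 2 genes separated in the higher direction and 0 in the lower. A separation in the higher direction was found for 3.89% of all tested genes. Pnisr had a log2 fold change of 0.15 and Luc7l one of -0.16, and the list's median was 0.03 with 16 positive and 9 negative values.

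The hnRNP proteins, which often oppose SR proteins at splice sites, had 18 of 26 members negative and a median of -0.04. None was called in edgeR or limma-voom, 4 were lower at an unadjusted p under 0.05 (18.2% of genes with a mean log2 CPM over 3), and DESeq2 called 3 lower (3.43% of all tested genes). These 3 were Ptbp3, a polypyrimidine tract binding protein, Syncrip and Hnrnpf. Ptbp3 had 162 to 169 CPM in control AAV and 138 to 155 CPM in nANGPTL4 AAV, and its log2 fold change was -0.19 (SE 0.04, edgeR adjusted p = 0.0853). Syncrip averaged 38.0 ± 2.49 CPM in the first group and 31.4 ± 2.67 CPM in the second, with -0.27 on the log2 scale (SE 0.07, edgeR adjusted p = 0.0991). Hnrnpf averaged 85.5 ± 1.76 and 77.9 ± 1.21 CPM (-0.13, edgeR adjusted p = 0.112). In each of the 3 the groups did not overlap, and they were the only such genes among the 26. A separation in the lower direction was found for 12.6% of genes with a mean log2 CPM over 3.

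Other splicing regulators had a median of -0.07, with 23 of 31 measured genes negative, 0 called in edgeR, and 7 lower and 1 higher at an unadjusted p under 0.05, where 18.2% of genes with a mean log2 CPM over 3 were lower. Fubp1, at 84.8 ± 1.66 and 77.6 ± 1.68 CPM, had a log2 fold change of -0.13 (edgeR adjusted p = 0.124), and Mbnl1, a muscleblind regulator, one of -0.12 (edgeR adjusted p = 0.164). Rbfox3 was higher by 0.33 at a low level, 6.05 and 7.59 CPM (edgeR adjusted p = 0.132). DESeq2 called Fubp1 lower and Rbfox3 higher, beside 3.43% of all tested genes called lower and 1.63% called higher.

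The spliceosome core was close to even, with 23 of 47 genes positive, 24 negative and a median of -0.0095. None was called in edgeR, DESeq2 or limma-voom, with 2 higher and 3 lower at an unadjusted p under 0.05, beside 22.5% in either direction of genes with a mean log2 CPM over 3. Sf3b3, of the U2 particle, had a log2 fold change of -0.16, Prpf19 one of -0.12 and Zrsr2, which reads the splice site of minor introns, one of 0.18 (edgeR adjusted p = 0.137, 0.190 and 0.187). Of 15 genes of nonsense-mediated decay and the exon junction complex, 10 were negative with a median of -0.03, and 0 were called in any of the 3 tools. At an unadjusted p under 0.05, 3 were lower, where 18.2% of genes with a mean log2 CPM over 3 were lower. The 3 genes included Smg8 at -0.17 and the helicase Upf1 at -0.13 (edgeR adjusted p = 0.166 and 0.208).

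The genes whose profile over the 8 libraries was most like that of Srsf10 were not splicing factors. Likeness was the root mean square difference of log2 CPM after centring each gene on its own mean, over 9011 genes with a mean log2 CPM of at least 3, leaving out the family and genes with provisional symbols. The nearest 5 were Rab8b, a vesicle traffic GTPase (0.0322), Bahd1, a heterochromatin factor (0.0342), Tctn3, a ciliary protein (0.0348), Rasa1, a Ras GTPase activator (0.0363), and Slc25a46, a mitochondrial outer membrane protein (0.0381). Rab8b had 95.5 to 103 CPM in control AAV and 76.9 to 84.0 CPM in nANGPTL4 AAV. All 5 were lower without overlap, as a profile chosen by its likeness to Srsf10 must nearly be. Among the family, Srsf6 (0.0862) and Srsf7 (0.0892) were nearest to Srsf10 and Srsf5 (0.235) farthest, where the median of the 9011 genes was 0.156. The measure includes the group difference by which Srsf10 was chosen, so this order is not independent of the fold changes.

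The libraries held 83183122 to 114337333 counts, of which the family took 144249 to 200179. Counting error in the family sum is therefore small beside its spread between libraries. It can be a larger part of the spread for single members, which held as few as 3653 counts (Srsf4, control AAV library 3). Endothelial markers were abundant, with the 12 markers summing to 21539 to 22182 CPM in control AAV and 20533 to 21491 CPM in nANGPTL4 AAV. Of the 12, 11 had negative fold changes, beside 62.5% of genes with a mean log2 CPM over 3. The sign leaned with the level. Over all tested genes 9860 of 18874 fold changes were positive, but only 3469 of the 9256 with a mean log2 CPM over 3. Markers of other cells were present, and 0 of the listed markers were at 0 in all 8 libraries. The 14 epithelial markers summed to 348 to 508 CPM and 488 to 598 CPM, with 12 positive. Of these, the club cell gene Scgb3a2 was called higher (log2 fold change 1.296, SE 0.19, edgeR adjusted p = 0.0369), the only call among the lists outside the family. The 8 lymphocyte markers measured summed to 4.52 to 5.005 and 5.64 to 9.44 CPM, all positive. The 7 myeloid markers measured summed to 21.5 to 42.5 and 33.9 to 56.0 CPM with 6 positive, the 10 erythroid and platelet markers to 48.2 to 92.3 and 78.0 to 90.0 CPM, all positive, and the 13 fibroblast and mural markers to 68.6 to 137 and 79.3 to 169 CPM with 6 positive. With the mean of these markers as a covariate the log2 fold change of Srsf10 was -0.29 (SE 0.06, edgeR adjusted p = 0.249), and 0 genes were called in the whole table. Nuclear-retained RNA had 3 of 5 values positive, with Neat1 at 0.30 (SE 0.11, edgeR adjusted p = 0.204) and Malat1 at 0.12, and 16 of 18 immediate early genes were positive with a median of 0.20 and 0 called.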

How the data were processed

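The deposited values were read counts per Ensembl gene, whole numbers that the authors did not normalize, judging by the values, for 31610 genes in 8 libraries. The submitters' processing notes name the build mm10. For aligner, counter and strand setting the entry is: not given in the sources used here. Identifiers were matched to symbols without their version (31491 of 31610). From these counts edgeR 4.0.16 in R 4.3.3 was run with filterByExpr (minimum count 10), TMM scaling and the quasi-likelihood test with group as the only term, with Benjamini-Hochberg adjustment over 18874 genes and a threshold of 0.05. CPM used TMM-scaled library sizes, and log2 CPM a prior count of 2. Exons and coding sequences came from GENCODE M21, of the same build. No table of protein sequences was used. The fit was also run on simulated counts, with an outcome that is not reported here. The other fits used DESeq2 1.42.0, limma-voom (limma 3.58.1), other scalings and filters, a replicate block, a covariate and each library left out. The members, lists and tests were chosen with earlier results of these data known. The other cell type score is the mean log2 CPM of 52 markers. Named genes were all members, list genes called over all genes or else up to 3 by smallest p (2 for markers, most not printed) and the 5 profiles nearest to Srsf10. A list gene that this rule names is not reported here.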

Additional observations from a re-analysis of the deposited data

Results flagged for a closer look

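Of 20 sets of 4 libraries (each of 10 genes in each group), 2 held a library far from the others by Dixon's criterion, where chance gives about 1 in 20. Srsf3 was at 225 CPM in control AAV library 1, with the nearest other library at 200.4 CPM, so that 92.6% of the group's range lay in that gap. Srsf7 was at 126.1 CPM in nANGPTL4 AAV library 2, with the nearest at 150.2 CPM and 91.9% of the range in the gap.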

How the results depend on the processing

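Srsf10 kept its direction in each of the 17 other fits, as did Srsf5, Srsf6, Srsf7, Srsf1 and Srsf11. The log2 fold change of Srsf10 lost its call at -0.241 with upper quartile factors (edgeR adjusted p = 0.106), -0.237 with unscaled library sizes (0.102), -0.276 with RLE size factors (0.0598), -0.275 with no filter (0.0599), -0.265 with the stricter filter (0.0662), -0.273 in limma-voom (0.0521) and -0.285 with the other cell type score (0.249). The cause was not tested. SR members called lower went from 1 to 0 in those fits. With each library left out in turn, Srsf10 lay between -0.297 and -0.247, 0 SR members were called, and the family median lay between -0.0836 (control AAV library 4 left out) and -0.0112 (nANGPTL4 AAV library 2 left out). Over all genes, 9 were called higher and 17 lower. Upper quartile factors and unscaled library sizes each called 3 higher and 1 lower, the stricter filter 11 lower, DESeq2 308 higher and 648 lower, the other cell type score 0 and 0, a threshold of 0.1 gave 114 higher and 357 lower, and leaving out 1 library gave 1 to 2 higher and 0 to 1 lower. The median over all genes was 0.0089 with TMM, 0.0488 with upper quartile factors and 0.0522 with unscaled library sizes. Members near 0 changed sign: Srsf4 was at 0.0306 with upper quartile factors, 0.0343 with unscaled library sizes, 0.0059 with the stricter filter and from -0.0277 to 0.0236 with 1 library left out; Srsf9 was at -0.0349 with the other cell type score and from -0.0094 to 0.0381 with 1 library left out; the score also put Srsf2 at 0.0587 and Srsf3 at 0.0316.

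No pairing of the libraries by replicate number was seen. Deviations of same-numbered libraries correlated across genes at 0.138, 0.165, -0.254 and -0.308, and 2 of 8 libraries matched their own number best. With 4 libraries per group such a check cannot exclude a shared batch. With the replicate block Srsf10 was at -0.279 (edgeR adjusted p = 0.171), and 0 SR members, 1 gene higher and 5 lower were called.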
